A study of Mus musculus with 8 samples.

Results

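The genes described here are 10 members of the set known as beta cell disallowed genes: Ldha, Slc16a1, Hk1, Oat, Acot7, Pdgfra, Cxcr4, Igfbp4, Lmo4 and Smad3. They were chosen by name, and every non-control probe that the scanner files assign to one of them was taken, which gave 16 of the 39429 probes on the array and 10 of its 30028 gene labels. Each gene had at least 1 probe. The RNA came from samples labelled as pancreatic beta cells of C57BL/6 mice, 4 from animals fed a control diet, also called chow in the labels, and 4 from animals fed a high-fat diet. No transgene or other agent is named for either group, and the age and sex of the animals, the length of the diet and the way the cells were isolated are not given in the sources used here. Every sample had its own single-colour Agilent array, read in the Cy3 channel.

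Disallowed genes are genes that most tissues express as a matter of course and that mature beta cells keep at low levels. The best known cases concern fuel sensing. A beta cell normally passes pyruvate into the mitochondria, with little lactate dehydrogenase A and little monocarboxylate transporter 1 to make or import lactate and pyruvate, and it holds little of the high-affinity hexokinase 1, so that insulin release follows blood glucose. Other members of the set encode growth factor and chemokine receptors, a binding protein for insulin-like growth factors, transcriptional regulators and metabolic enzymes.

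Levels are given as the log2 of the processed signal minus the 75th percentile of the same array, so that 0 is the level of a fairly bright probe. They describe a probe across arrays and do not rank different probes. There were 2 slides with a scan session for each, and replicates 1 and 2 of both diets were on slide 1 and replicates 3 and 4 on slide 2. Control arrays held positions 1 and 3 and high-fat arrays positions 2 and 4, so position and diet cannot be told apart. All 11 beta cell markers examined were well above background on all 8 arrays, and so were all 9 acinar, all 6 alpha cell, all 5 delta and PP cell, all 8 endothelial and all 9 stellate cell, fibroblast and pericyte markers. The summed signal of the beta cell markers ranged from 9.77 to 10.22 (log2) on control and from 9.89 to 10.27 on high-fat arrays. That of the acinar markers ranged from 10.75 to 11.73 and from 11.03 to 11.82. In such bulk RNA, fewer cells of a type and less RNA per cell cannot be told apart, and the signal of a member cannot be assigned to beta cells or to the other cells present.

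The probes themselves are shown first, because several members were read by probes at different places and those probes did not always move together. All member probes are 60 bases long, and the scanner files place them on the mouse build mm9. The Ldha probes lie on the plus strand at chr7:54103010-54103069 (A_55_P2141876), chr7:54107294-54107353 (A_55_P2141878) and chr7:54110937-54110996 (A_55_P2012984). The Hk1 probes lie on the minus strand at chr10:61732717-61732776 (A_55_P2118843), chr10:61731856-61731915 (A_55_P2027999) and chr10:61731230-61731288 (A_55_P2037398). The remaining probes that the results turn on are those of Slc16a1 (A_66_P137384, chr3:104462276-104462335, plus strand), Igfbp4 (A_52_P257502, chr11:98913334-98913393, plus strand), Pdgfra (A_51_P345649, chr5:75593888-75593947, plus strand) and Cxcr4 (A_52_P585124, chr1:130485079-130485138, minus strand). Which exon or untranslated region each probe lies in was not analysed here. Sequences run 5′ to 3′, whole for 3 probes and as a stretch of 30 bases for the others. Capitals mark AATAAA, the commonest polyadenylation signal, searched on the strand given.
Ldha A_55_P2141876: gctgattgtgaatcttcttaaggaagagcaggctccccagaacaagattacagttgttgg
Ldha A_55_P2141878: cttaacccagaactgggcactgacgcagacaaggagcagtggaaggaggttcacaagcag
Ldha A_55_P2012984: agtgtcatgccaAATAAAaccttgaacagt
Hk1 A_55_P2118843: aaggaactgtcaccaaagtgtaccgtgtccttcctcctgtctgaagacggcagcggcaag
Hk1 A_55_P2027999: ggaatctcccatcgctttagtgagccattg
Hk1 A_55_P2037398: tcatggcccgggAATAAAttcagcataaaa
Slc16a1 A_66_P137384: ttcaaacccctcccatgttttccttattct
Igfbp4 A_52_P257502: gagaagagaaacctcattcttggagtgaga
Pdgfra A_51_P345649: tgtatatatctgttgctatgtagacttgga
Cxcr4 A_52_P585124: tgtggtaaattgAATAAAgctagccgtgat
The hexamer was present in 4 of the 16 member probes, namely those of Ldha and Hk1 nearest the 3′ end, that of Cxcr4 and Smad3 A_55_P2101001, and in 12.6% of all probes on the array.

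The question put to the arrays was whether the members differed between the diets. Of the 16 probes, 14 from 9 genes cleared the background filter (4 or more of the 8 arrays) and were tested; the Pdgfra probe and Smad3 A_51_P441022 were not. With limma, 0 of the 14 passed an adjusted p under 0.05, and the same held for all 26076 probes tested, of which 0% were called and the smallest adjusted p was 0.169. The adjusted p of the members ran from 0.753 to 0.999. At an unadjusted p under 0.05 there were 2 member probes, of Hk1 and Igfbp4, both lower on the high-fat diet, against 5.8% of all probes in either direction and 3.39% lower. Of the probes at that p over the whole array, 41.6% were higher with the scaling used here, 64.5% with scaling to the median and 54.9% with quantile normalization. Member probes at that p numbered 1 with scaling to the median, 2 with quantile normalization and 1 with the deposited value table. The levels of the diets overlapped for all 14 member probes, while 3.35% of all probes had no overlap. The differences between diets, high-fat minus control in log2 units, were above 0 for 5 and below 0 for 9 of the tested member probes (48% of all probes were above 0), with a median of -0.016 against -0.010 for all probes. Its absolute size had a median of 0.10 for the members and 0.14 for all probes. The difference was smaller than its own SE for 9 of the 14.

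**Figure D1:**
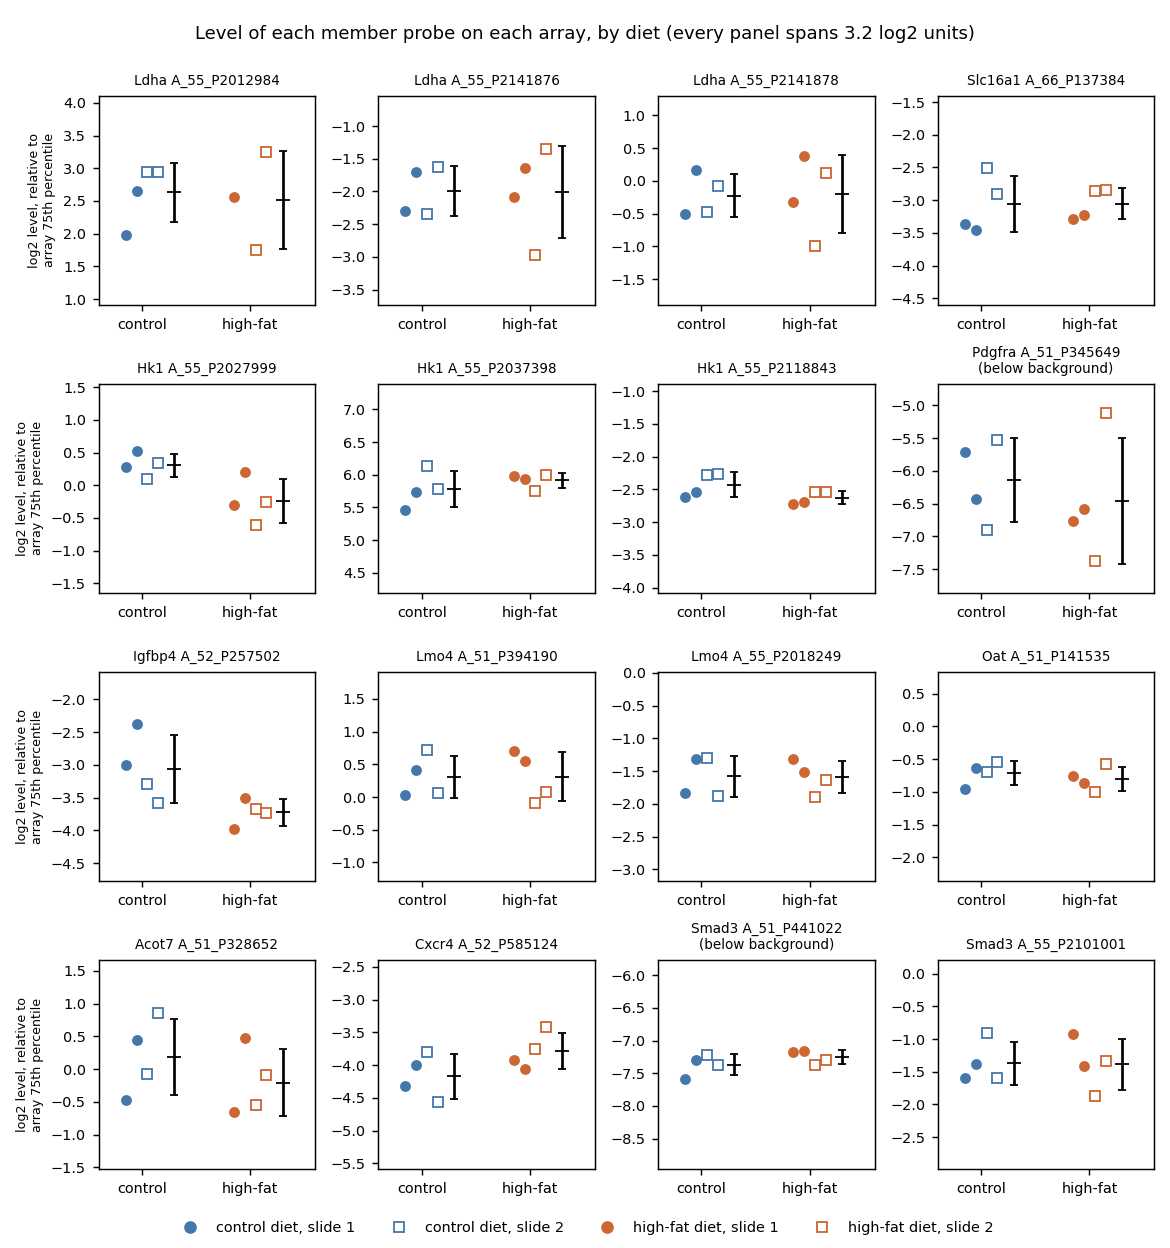
Log2 level of each of the 16 member probes, relative to the 75th percentile of its array, on the 4 control (blue) and 4 high-fat (orange) arrays. Filled circles are slide 1 and open squares slide 2, black bars give the group mean ± SD, and every panel spans the same number of log2 units; the diets overlap in every panel, and the Slc16a1 points of slide 2 lie above those of slide 1.

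Lactate dehydrogenase A, encoded by Ldha, interconverts pyruvate and lactate. Its probe A_55_P2012984 read 1.98, 2.66, 2.94 and 2.95 on control arrays 1 to 4 and 2.55, 1.75 and 3.25 on high-fat arrays 1, 3 and 4; the spot of high-fat array 2 was marked as an outlier and left out. The high-fat arrays held both the lowest and the highest of these values, and the diets overlapped. The difference was -0.11 ± 0.39 (SE, 4 control and 3 high-fat arrays, limma adjusted p = 0.978). With the marked spot kept, at 3.16, it was 0.045 ± 0.36. The middle probe, A_55_P2141878, read -0.51, 0.17, -0.48 and -0.079 on the control arrays and -0.32, 0.38, -0.99 and 0.12 on the high-fat arrays. The first probe, A_55_P2141876, read -2.30, -1.70, -2.34 and -1.62 on the control arrays and -2.08, -1.64, -2.97 and -1.35 on the high-fat arrays. On each of the 3 probes high-fat replicate 3 was the lowest of all arrays, and high-fat replicate 4 was above every control array on 2 of them. The differences were 0.022 ± 0.30 and -0.017 ± 0.35, with 95% confidence intervals of -0.67 to 0.71 and -0.82 to 0.79, so a rise or fall of either size was not separable from the spread between arrays. Without high-fat replicate 3 the differences of the 3 probes were 0.27, 0.30 and 0.28.

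The Ldha probes moved largely together across arrays, with an exception at control replicate 3. There A_55_P2012984 stood 5.28 above A_55_P2141876, against 4.29 to 4.57 on the other control arrays. With each probe centred on its own mean, the outer probes differed from each other by a root mean square of 0.30, and from the middle probe by 0.32 (A_55_P2012984) and 0.18 (A_55_P2141876), while their SDs over the arrays were 0.54 (A_55_P2012984), 0.53 (A_55_P2141876) and 0.45 (A_55_P2141878). The genes most like A_55_P2012984 in centred level over its 7 arrays were an unnamed transcript read by A_55_P2063471 (root mean square difference 0.047), Ptgr1 (0.11) and an unnamed transcript read by A_55_P2069995 (0.11).

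**Figure D2:**
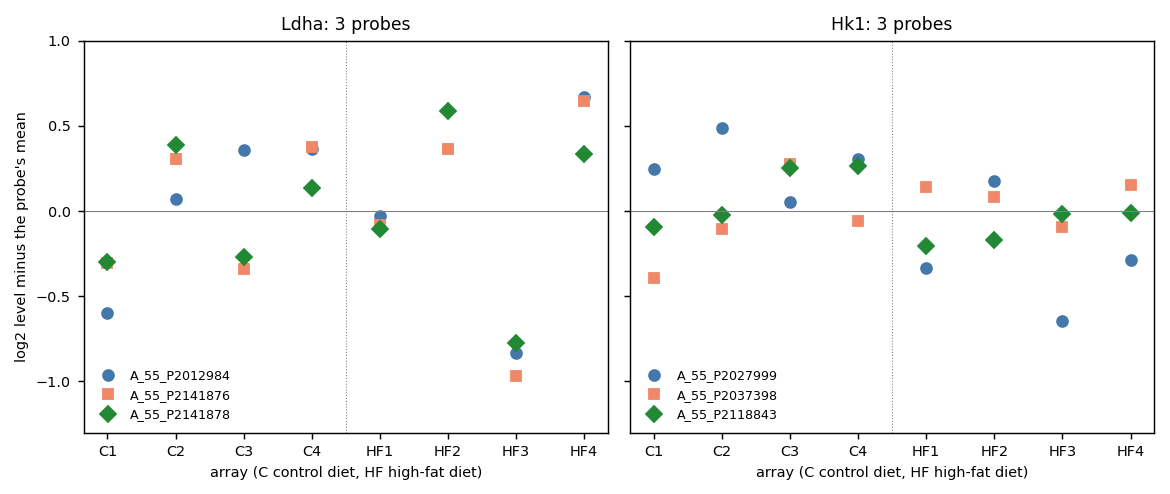
Log2 level minus the mean of the probe over the arrays (vertical axis) on each array (horizontal axis, C control diet, HF high-fat diet) for the 3 probes of Ldha and the 3 probes of Hk1. All 3 Ldha probes are lowest on high-fat replicate 3, whereas high-fat replicates 1, 3 and 4 of Hk1 lie below every control array with A_55_P2027999 and not with A_55_P2037398.

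Slc16a1 encodes monocarboxylate transporter 1, which carries lactate and pyruvate across the plasma membrane. Its probe read -3.36, -3.45, -2.51 and -2.91 on the control arrays and -3.29, -3.23, -2.86 and -2.84 on the high-fat arrays. The high-fat values lay within the range of the control values, and the difference was 0.0029 ± 0.23 (limma adjusted p = 0.999, 95% confidence interval -0.51 to 0.52). All 4 arrays of slide 2 were above all 4 of slide 1. The slide difference, slide 2 minus slide 1 with diet in the model, was 0.55 ± 0.12, with an unadjusted p of 0.00268 and an adjusted p of 0.0701 (limma), so it was not called. It was -0.26 with normexp background correction, 0.24 ± 0.14 with normexp without spots of high local background and 0.034 ± 0.034 in the deposited value table. In that fit 0 of the 14 member probes were called, against 2.77% of all probes (722 of 26070). The called probes were 91.6% higher on slide 2, and 78.5% with median scaling. At an unadjusted p under 0.05 there were 2 member probes, Slc16a1 and Hk1 A_55_P2118843, against 18.5% of all probes, and the same 2 had slides that did not overlap, against 12.6%. The genes most like Slc16a1 in centred level over the 8 arrays were Krtap5-5, Greb1 and Lypd5, with root mean square differences of 0.059, 0.059 and 0.064. They were the closest of 11864 candidates on these same arrays, so their own slide differences of 0.59, 0.51 and 0.50 follow from that choice.

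Of 8 other lactate dehydrogenase and monocarboxylate transporter genes, chaperones included, 7 were tested, 4 above and 3 below 0, none past the threshold with limma and 0 at an unadjusted p under 0.05, with a median difference of 0.21. Over the 19994 genes tested with 1 probe each, 10034 were above 0, 1171 (5.86%) had an unadjusted p under 0.05 and the median was 0.00093. Ldhb, the heart-type subunit, differed by -0.19 ± 0.14. The lactate exporter Slc16a3 differed by 0.46 ± 0.29 and Slc16a7, a high-affinity pyruvate transporter, by 0.36 ± 0.28. Of 15 genes for mitochondrial pyruvate entry and the NADH shuttles, 12 were above 0, none passed the threshold, and the median was 0.11. The pyruvate carrier subunits Mpc1 and Mpc2 stood at 0.0063 ± 0.096 and 0.12 ± 0.13. Pyruvate carboxylase, Pcx, stood at -0.30 ± 0.17. Gpd2, the mitochondrial glycerol phosphate dehydrogenase, was the only gene of these at an unadjusted p under 0.05 (-0.45 ± 0.15, adjusted p = 0.726). Slc25a13, an aspartate-glutamate carrier, was called for the slide, 0.71 higher on slide 2 (adjusted p = 0.0160), as were 3.4% of all genes, and not for the diet.

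Hk1 encodes the high-affinity hexokinase. The probe A_55_P2027999 read 0.28, 0.52, 0.088 and 0.34 on the control arrays and -0.30, 0.21, -0.62 and -0.26 on the high-fat arrays. High-fat replicates 1, 3 and 4 were below every control array, and high-fat replicate 2 was above control replicate 3. The mean was 0.31 ± 0.18 on the control and -0.24 ± 0.34 on the high-fat diet (SD, n = 4 each). The difference of -0.55 ± 0.18 (SE), a 1.46-fold lower signal with a 95% confidence interval of -0.97 to -0.13, had an unadjusted p of 0.0167 and did not pass the adjusted threshold (limma adjusted p = 0.753, and 0.579 with the slide as a block). It was -0.45 on slide 1 and -0.65 on slide 2.

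The other Hk1 probes gave smaller differences. A_55_P2118843 read -2.62, -2.55, -2.27 and -2.26 on the control arrays and -2.73, -2.69, -2.54 and -2.53 on the high-fat arrays. Its values were lower on the high-fat diet within each slide and higher on slide 2 within each diet. The difference between diets was -0.20 ± 0.12 (limma adjusted p = 0.916). With the slide as a block its SE was 0.086 (limma unadjusted p = 0.0526, adjusted p = 0.692). A_55_P2037398, which the files assign to another transcript record, read 5.46, 5.74, 6.13 and 5.79 on the control arrays and 5.99, 5.93, 5.75 and 6.00 on the high-fat arrays. Here the high-fat values lay inside the range of the control values, with a difference of 0.14 ± 0.15 that was -0.032 with quantile normalization and -0.27 with normexp. With the probes centred, A_55_P2027999 and A_55_P2037398 differed by a root mean square of 0.46, more than the SD of either over the arrays (0.39 and 0.21). The related hexokinase gene Hk2 did not pass the filter on dim probes.

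**Figure D3:**
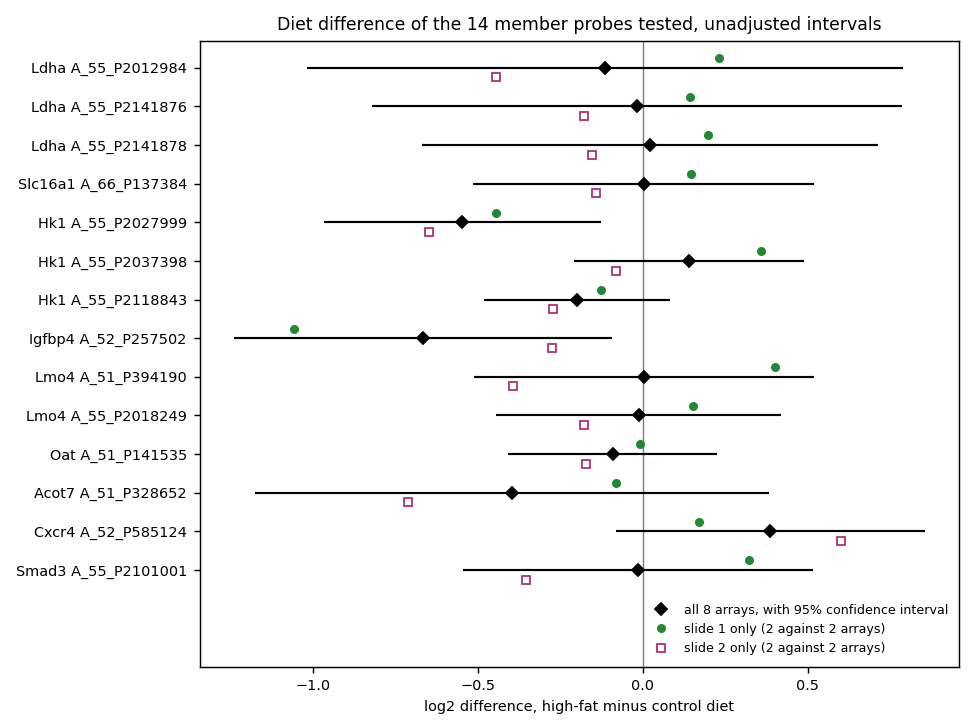
Log2 difference between diets (horizontal axis, high-fat minus control) for the 14 member probes tested; diamonds with bars give the estimate from all arrays and its unadjusted 95% confidence interval, green circles slide 1 alone and purple open squares slide 2 alone (Ldha A_55_P2012984 rests on 7 arrays, with 1 high-fat array on slide 1). The interval lies below 0 for Hk1 A_55_P2027999 and Igfbp4, and for 8 probes the circle and the square lie on opposite sides of 0.

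Oat and Acot7 are the other metabolic enzymes of the set. Ornithine aminotransferase, Oat, is a mitochondrial enzyme that links ornithine to glutamate and proline; its probe read -0.96, -0.64, -0.69 and -0.54 on the control arrays and -0.75, -0.87, -1.0 and -0.57 on the high-fat arrays. The diets overlapped almost fully, and the difference was -0.091 ± 0.14, with a 95% confidence interval of -0.41 to 0.23, among the narrowest of the members. Of 10 other genes of ornithine and proline metabolism 8 were tested, 5 above and 3 below 0, with a median of 0.15 and none past the threshold. At an unadjusted p under 0.05 there were 4 of them. Pycr1, which makes proline, and Aldh18a1, which acts earlier in its synthesis, were above 0, at 0.58 ± 0.12 and 0.29 ± 0.11. Arginase 1, Arg1, and argininosuccinate synthase, Ass1, were below 0, at -0.42 ± 0.13 and -0.98 ± 0.40. Pycr1, Arg1 and Ass1 were singled out after their values were seen, and the limma adjusted p of the 4 ran from 0.407 to 0.810.

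Acot7 encodes a cytosolic acyl-CoA thioesterase, which splits fatty acyl-CoA into free fatty acid and coenzyme A. Its probe read -0.46, 0.44, -0.078 and 0.86 on the control arrays and -0.66, 0.47, -0.55 and -0.094 on the high-fat arrays. The samples of each diet were widely spread, with SDs of 0.58 and 0.52, and overlapped. The difference was -0.40 ± 0.34 (limma adjusted p = 0.924), at -0.080 on slide 1 and -0.71 on slide 2, and was -0.17 without control replicate 4. Of 9 other thioesterase genes 8 were tested, 6 above and 2 below 0, with a median of 0.12, none past the threshold and 1 at an unadjusted p under 0.05, Acot11 at 0.25 ± 0.10, named after its value was seen.

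Among the receptors, Pdgfra encodes the alpha receptor for platelet-derived growth factor, which is a marker of mesenchymal cells in many tissues. Its probe is printed on 10 spots of each array. The number of these spots well above background was 2, 0, 0 and 1 on control arrays 1 to 4 and 0, 0, 0 and 4 on high-fat arrays 1 to 4, so under 50% of the spots qualified on every array and the probe was not counted as well above background on any. Its mean over spots was -5.71, -6.44, -6.90 and -5.52 on the control arrays and -6.77, -6.58, -7.38 and -5.12 on the high-fat arrays, and no fold change or test is given. The arrays with any spots well above background were also those with the highest means. Since the probe lay at background, its values were not compared between the diets, and its most similar genes are not given for the same reason. The summed signal of the 9 stellate cell, fibroblast and pericyte markers was 3.18, 3.12, 2.65 and 3.58 on the control arrays and 2.58, 3.02, 2.83 and 3.60 on the high-fat arrays, overlapping between the diets. The part of these cells in the Pdgfra signal was not tested. Of its 5 ligand and receptor partners, all tested, 2 were above and 3 below 0, with none past the threshold and a median of -0.12. The ligand Pdgfa differed by -0.14 ± 0.17 and the beta receptor Pdgfrb by 0.25 ± 0.20, and the ligand Pdgfd, named after its value was seen, was the only gene of these at an unadjusted p under 0.05, at -0.61 ± 0.22.

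Cxcr4, the receptor of the chemokine CXCL12, had a dim probe that was well above background on all 8 arrays. It read -4.32, -3.99, -3.80 and -4.57 on the control arrays and -3.92, -4.05, -3.75 and -3.41 on the high-fat arrays. High-fat replicates 3 and 4 were above every control array and the other two lay within the control range. The difference was 0.39 ± 0.20, the largest positive one among the members tested, and did not pass the threshold (limma unadjusted p = 0.0943, adjusted p = 0.890, 95% confidence interval -0.082 to 0.86). In the deposited value table it was 0.039. It was above 0 on both slides, at 0.17 on slide 1 and 0.60 on slide 2. Its ligand Cxcl12, itself described as low in beta cells, was lower at an unadjusted p only (-0.56 ± 0.22, adjusted p = 0.804), and the scavenger receptor Ackr3 stood at -0.14 ± 0.27. Of the 5 partners in this axis 1 was above and 4 below 0, with none past the threshold and a median of -0.19.

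Igfbp4 encodes a secreted protein that binds insulin-like growth factors. Its probe was dim, with intensities of 22.9 to 91.5, though well above background on all 8 arrays. It read -3.00, -2.37, -3.28 and -3.59 on the control arrays and -3.98, -3.50, -3.68 and -3.74 on the high-fat arrays. All high-fat arrays but replicate 2 were below every control array, and that one was above control replicate 4. The mean was -3.06 ± 0.52 on the control and -3.73 ± 0.20 on the high-fat diet (SD, n = 4 each). The difference of -0.67 ± 0.25 (SE), a 1.59-fold lower signal, was the largest among the members tested, with a 95% confidence interval of -1.24 to -0.092. Its unadjusted p was 0.0279 and its limma adjusted p 0.792, so it did not pass the threshold. Without control replicate 2, the highest array, it was -0.44. The slides gave -1.06 and -0.27, in that order, and the test of the difference between slides gave an unadjusted p of 0.0818 and an adjusted p of 0.773 (limma). Median scaling gave a difference of -0.59 ± 0.30 and quantile normalization one of -0.56 ± 0.30. With normexp the sign turned, to 0.34 ± 0.49. The difference was -0.24 ± 0.15 when normexp left out spots of high local background and -0.10 ± 0.065 in the deposited value table. The SE was thus smaller there as well. Of 11 other genes of the insulin-like growth factor axis 8 were tested, 4 above and 4 below 0, with a median of 0.038 and none past the threshold. Igfbp3, another binding protein, was at 0.61 ± 0.18 and was the only gene of these at an unadjusted p under 0.05, while Igfbp5 stood at -0.18 ± 0.13 and the receptor Igf1r at -0.18 ± 0.13. Igfbp7 was called for the slide, 1.51 higher on slide 2 (adjusted p = 0.00841), with a diet difference of 0.22 ± 0.55.

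Markers of other cell types were read beside the Hk1 and Igfbp4 values. The summed signal of the 7 macrophage markers, all well above background on all 8 arrays, was 4.43 to 4.68 on the control and 4.12 to 4.33 on the high-fat diet, without overlap. Of these 7 genes 6 were below 0, with 0 called and 0 at an unadjusted p under 0.05 (limma). For the delta and PP cell markers it was 8.14 to 8.46 and 7.82 to 8.15, with all 5 genes below 0, 4 of them at an unadjusted p under 0.05, and a median difference of -0.44. For the alpha cell markers it was 8.07 to 8.53 and 8.11 to 8.39, with 5 of 6 genes below 0, 4 of them at that p, and a median of -0.87. For the lymphocyte markers it was 3.37 to 4.14 and 3.35 to 4.06, with 5 of 8 genes below 0, 0 of them at that p, and a median of -1.01. In the other lists, genes above 0 were 7 of 9 for acinar, 5 of 5 tested for ductal and 7 of 9 for stellate cell, fibroblast and pericyte markers. They were 7 of 8 for endothelial, 3 of 3 for red blood cell, 6 of 11 for beta cell and 1 of 5 for Schwann cell markers. Among all the lists read, only the macrophage sum had no overlap between the diets. None of the marker genes of any list passed the adjusted threshold for the diet. The part of these cells in the Hk1 and Igfbp4 values was not tested.

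The transcriptional regulators Lmo4 and Smad3 had differences close to 0. Lmo4 encodes a LIM-only protein that bridges other nuclear proteins. Its probe A_51_P394190 read 0.037, 0.41, 0.71 and 0.066 on the control arrays and 0.70, 0.55, -0.086 and 0.080 on the high-fat arrays. On slide 1 the high-fat arrays were above the control arrays and on slide 2 the lower of the high-fat arrays was below both control arrays. The difference was 0.0045 ± 0.23 over all arrays, 0.40 on slide 1 and -0.39 on slide 2, and the test of the difference between slides gave an unadjusted p of 0.0631 and an adjusted p of 0.765 (limma). Its probe A_55_P2018249 read -1.83, -1.31, -1.31 and -1.88 on the control arrays and -1.32, -1.51, -1.90 and -1.64 on the high-fat arrays. Here the high-fat arrays of slide 1 were both below control replicate 2. The difference was -0.013 ± 0.19, with 0.15 for slide 1 and -0.18 for slide 2. The centred probes of Lmo4 differed by a root mean square of 0.13. Of its 7 LIM-only and LIM homeodomain partners 3 were above and 4 below 0, with a median of -0.11 and none past the threshold. The adaptor Ldb1 stood at -0.20 ± 0.17 and the islet factor Isl1 at -0.11 ± 0.19. Lmo1, named after its value was seen, was the only gene of these at an unadjusted p under 0.05, at 0.57 ± 0.18.

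Smad3 encodes a transcription factor that carries signals from the transforming growth factor beta and activin receptors. Its probe A_55_P2101001 read -1.60, -1.38, -0.91 and -1.60 on the control arrays and -0.92, -1.41, -1.87 and -1.34 on the high-fat arrays. The highest control array and the highest high-fat array were nearly level, and the diets overlapped. The difference was -0.015 ± 0.23, at 0.32 on slide 1 and -0.35 on slide 2. The other Smad3 probe, A_51_P441022, was not well above background on any array. Of 13 other genes of the pathway 4 were above and 9 below 0, with a median of -0.073 and none past the threshold. The receptors Tgfbr1 and Tgfbr2 stood at -0.073 ± 0.12 and -0.49 ± 0.18, the latter at an unadjusted p under 0.05 together with the ligand Tgfb2 (-0.62 ± 0.22) and the co-receptor Tgfbr3 (-0.36 ± 0.15), which were named after their values were seen. Smad2, Smad4 and the inhibitory Smad7 stood at -0.12 ± 0.11, 0.063 ± 0.13 and 0.087 ± 0.24.

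The slides were also compared for every member. The diet difference changed sign between slide 1 and slide 2 for 8 of the 14 tested member probes, against 47.5% of all probes, a share near that of the array as a whole. In the test of that change, 0 of the 14 were called with limma and 0 had an unadjusted p under 0.05, against 0% called and 6.52% at that p among all probes. Most member probes also varied more between arrays than the median probe did. Their SD over the 8 arrays was above the median of all probes, 0.26, for 11 of the 14. These 14 probes come from 9 genes, so probes of the same gene are not separate members. The gap between the highest and lowest array ran from 0.47 for Oat to 1.62 for Igfbp4.

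A further 10 genes that have been described as disallowed or low in beta cells were read in the same way. All were tested, 2 above and 8 below 0, with a median difference of -0.23 against 0.00093 over all genes. None passed the threshold with limma, and 2 had an unadjusted p under 0.05, Cxcl12, given above, and Ndrg2 at -0.71 ± 0.28, named after its value was seen. The antioxidant enzymes Mgst1 and Cat differed by -0.038 ± 0.38 and -0.10 ± 0.18, and Rest, a repressor of neuronal genes that is also kept low in beta cells, by -0.18 ± 0.27. The p-values here measure the spread between the samples, which the labels call biological replicates.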

How the data were processed

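The files deposited for each array hold 1 line per spot with its processed signal in intensity units, made by Agilent Feature Extraction 11.5.1.1 per the submitters' processing notes and on mm9 per the file headers. The deposited value table holds log2 values of the same arrays. The authors name limma for it without parameters, so its normalization and any centring are not known in full; its columns have medians of 8.68 to 8.69, and each matched its own array best, in the same direction. Levels are the log2 of the intensity minus the 75th percentile over the non-control spots of that array, with outlier and control spots dropped and repeated spots of a probe averaged. The fit took 26076 of 39429 probes, those well above background on 4 or more of the 8 arrays (for a probe with several spots, in at least 50% of them). It used lmFit and eBayes of limma 3.58.1, run under R 4.3.3, two-sided, with Benjamini-Hochberg adjustment over all probes and a threshold of 0.05. Gene lists used the brightest probe per gene (19994 genes).

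The arrays held 43020 non-control spots each, of which 63.6% to 68.6% were well above background and none was saturated. The number of arrays limits the precision, with a median SE of 0.17 for a log2 difference. Similar genes are the 3 with the smallest root mean square difference in centred level, among genes whose SD was not far below that of the member. Besides the members, a fixed set of partner genes is named; the list of Hk1 partners is not reported here. The members, lists and tests were chosen with earlier results of these data known. The fit was tested on simulated data. Of 50 probes given each diet difference, 5 were called at 0.5, 30 at 1, 29 at -1 and 44 at 2 log2 units. Of 25876 unchanged probes 2 were called. The noise in that simulation was independent and held no slide difference. Alternatives were median scaling, quantile normalization, normexp background correction with offset 50, with and without spots of high local background, the deposited table, the filter on dim probes removed or tightened, 1 probe per gene, trended robust eBayes, a block for slide or for replicate number, either slide by itself and the omission of each sample; keeping outlier spots was added after seeing the data. Tables and figures were made with Python 3.11.15, pandas 2.3.3, numpy 2.4.6 and matplotlib 3.10.9.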

Additional observations from a re-analysis of the deposited data

How the results depend on the processing

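No member probe was called under any alternative, and 3 of the 14 (Hk1 A_55_P2027999, Acot7 and Cxcr4) kept their sign under all that were run, though not their size. Igfbp4, Oat and Hk1 A_55_P2118843 turned only with normexp. On high-fat array 2 the largest local background of a spot was 261989 intensity units, against a median of 33 on that array. The median diet difference over all probes was 0.19 with normexp, against 0.026 with normexp without spots of high local background. The diet difference became 0.056 (Ldha A_55_P2141876), 0.060 (Lmo4 A_55_P2018249) and 0.058 (Smad3) with median scaling. With quantile normalization it became 0.050 (Ldha A_55_P2141876), -0.032 (Hk1 A_55_P2037398), -0.00075 (Lmo4 A_51_P394190), 0.050 (Lmo4 A_55_P2018249) and 0.040 (Smad3). With normexp it became 0.33 (Ldha A_55_P2141876), -0.068 (Ldha A_55_P2141878), -0.27 (Hk1 A_55_P2037398), 0.42 (Hk1 A_55_P2118843), 0.34 (Igfbp4), -0.092 (Lmo4 A_51_P394190), 0.29 (Lmo4 A_55_P2018249), 0.10 (Oat) and 0.25 (Smad3), and without high-background spots 0.042 (Ldha A_55_P2141876), 0.040 (Lmo4 A_55_P2018249) and 0.023 (Smad3). With the deposited table it became 0.031 (Ldha A_55_P2012984), 0.037 (Ldha A_55_P2141876), 0.031 (Lmo4 A_55_P2018249) and 0.030 (Smad3), and with outlier spots kept 0.045 (Ldha A_55_P2012984). On slide 1 alone it became 0.23 (Ldha A_55_P2012984), 0.14 (Ldha A_55_P2141876), 0.15 (Lmo4 A_55_P2018249) and 0.32 (Smad3), and on slide 2 alone -0.15 (Ldha A_55_P2141878), -0.14 (Slc16a1), -0.081 (Hk1 A_55_P2037398) and -0.39 (Lmo4 A_51_P394190).

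Leaving out a sample in turn gave ranges of -0.48 to 0.27 (Ldha A_55_P2012984), -0.24 to 0.30 (Ldha A_55_P2141876), -0.17 to 0.28 (Ldha A_55_P2141878), -0.13 to 0.19 (Slc16a1), -0.12 to 0.14 (Lmo4 A_51_P394190), -0.11 to 0.089 (Lmo4 A_55_P2018249), -0.17 to 0.15 (Smad3), -0.70 to -0.42 (Hk1 A_55_P2027999), 0.032 to 0.26 (Hk1 A_55_P2037398), -0.26 to -0.14 (Hk1 A_55_P2118843), -0.84 to -0.44 (Igfbp4), -0.18 to -0.023 (Oat), -0.62 to -0.17 (Acot7) and 0.25 to 0.51 (Cxcr4). The slide difference turned to -0.26 (Slc16a1) and -0.40 (Hk1 A_55_P2118843) with normexp and to -0.039 (Hk1 A_55_P2118843) with the deposited table. The count of probes called for the diet was 1 with the deposited table, 1 with trended robust eBayes and 0 to 2 without a sample, with 2 only without high-fat replicate 1; none was a member. The 722 called for the slide became 340 with median scaling, 0 with normexp, 181 without high-background spots, 1165 with the deposited table (68.6% higher on slide 2), 318 with no filter, and 22 to 542 without a sample, lowest without high-fat replicate 4, with 121, 65, 268 and 50 without control replicates 1 to 4 and 391 and 292 without high-fat replicates 2 and 3. Median scaling moved the median slide difference of all probes from 0.017 to -0.14. The cause of these changes was not tested. The labels do not pair the samples, so the numbers were not taken as pairs. The deviations of same-numbered samples correlated at 0.24, 0.39, -0.024 and 0.30 for numbers 1 to 4, and numbers 1, 2 and 4 matched their own number best. Same-numbered samples also shared a slide and a scan session and lay at neighbouring positions, so pairing and shared technical conditions cannot be told apart. With the replicate number as a block 0 members and 0 of all probes were called, the probes at an unadjusted p under 0.05 went from 1513 to 2435, and SEs fell for some members (Acot7 from 0.34 to 0.18, Ldha A_55_P2141876 from 0.35 to 0.18, Hk1 A_55_P2027999 from 0.18 to 0.11). The most uncertain members are those of low signal, Pdgfra and Smad3 A_51_P441022, for which these arrays give no measured difference.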
